A study of Homo sapiens with 18 samples.

Results

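The genes described here encode 6 enzymes of the pentose phosphate pathway: PGLS, PGD, RPIA, RPE, TKT and TALDO1. They were chosen by symbol, by matching the Ensembl identifiers of the deposited count table to these names, and all 6 were found among its 20263 genes. RNA sequencing had been run on 18 libraries of human cancer cell lines, in 6 groups of 3. The labels name the lines MHCC-97H (from liver cancer), MDA-MB-231 (from breast cancer) and HCT-116 (from colon cancer), all of WT genotype, with no allele or transgene. Cells of each line were given DMSO alone (the control) or H3B-8800 at 20 nM for 24 h; H3B-8800 is an oral drug that acts on SF3B1, a core part of the splicing machinery.

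The pathway branches off glycolysis at glucose 6-phosphate. Its oxidative arm makes NADPH, which cells use for lipid synthesis and for keeping glutathione reduced, and ends at ribulose 5-phosphate. Its non-oxidative arm turns that sugar into ribose 5-phosphate, the sugar of nucleotides, and shuttles surplus carbon back to glycolysis. Tumour cells are known for a high demand for both products.

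The library totals ran from 28232315 to 41488278 counts. The labels HCT-116 and MDA-MB-231 covered nearly the same expression profile. The median Pearson correlation over 36 pairs of libraries was 0.986 across 10625 genes, which are not independent replicates. Each correlated with the libraries labelled MHCC-97H at only 0.374 to 0.423. All 6 liver markers, among them ALB (serum albumin), were at 0 counts under MHCC-97H, and they summed to 23.6 to 38.1 CPM (reads of a gene relative to library size) under the other labels. Over 6 libraries a count of 0 leaves room for 0.0142 CPM, the level of 3 counts, for counting error only. Whether such zeros stand for reads not found or for genes missing from that part of the table is not known, and the bound and this reading of the markers hold only for reads not found. The 6 intestinal markers summed to 1596 to 1695 CPM under both other labels, also where the label says breast. Most of that came from KRT20 (means of 898 and 912 CPM under MDA-MB-231 and HCT-116) and LGALS4 (417 and 416 CPM). CDX2 was at 5.33 and 5.53 CPM there, and CDX1 had 0 counts under every label. The 5 epithelial markers summed to 1357 to 1580 CPM under MHCC-97H and to 4190 to 5281 CPM under the other labels. Of these, EPCAM alone went the other way, at 16.3 CPM under MHCC-97H against 0.0176 and 0.0808 CPM. The 6 mesenchymal or basal breast markers summed to 2447 to 3058 CPM under MHCC-97H and to 31.0 to 49.4 CPM under the other labels. That sum was carried by VIM and KRT17 (means of 1187 and 1513 CPM under MHCC-97H), while ZEB1 was at 12.6 CPM there and 18.3 and 18.8 CPM elsewhere, and KRT5 and KRT14 were at or near 0 under every label. Each group is therefore called by its label, and results under the HCT-116 and MDA-MB-231 labels do not count as evidence from separate lines. Nothing in the labels says that replicate libraries came from separate cultures, so all p-values measure only the spread between these samples. In bulk RNA, fewer cells of a kind and less RNA per cell cannot be told apart.

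The promoters of 4 members are shown because PGD, TKT and TALDO1 were the members closest to each other over the libraries and PGLS was less close to them. The windows come from RefSeq on GRCh38.p14, where all 6 members were matched. They run from 250 bases before to 50 bases after the RefSeq start, 5′ to 3′. That start can differ from the gene start of the GENCODE annotation given below. The PGD window lies wholly inside the GENCODE span of PGD, downstream of its start at 10398592. Capitals mark matches on either strand to the GC box (GGGCGG), the CCAAT box (CCAAT) and the antioxidant response element core (TGACNNNGC).
PGLS, chr19:17511399-17511698, plus strand: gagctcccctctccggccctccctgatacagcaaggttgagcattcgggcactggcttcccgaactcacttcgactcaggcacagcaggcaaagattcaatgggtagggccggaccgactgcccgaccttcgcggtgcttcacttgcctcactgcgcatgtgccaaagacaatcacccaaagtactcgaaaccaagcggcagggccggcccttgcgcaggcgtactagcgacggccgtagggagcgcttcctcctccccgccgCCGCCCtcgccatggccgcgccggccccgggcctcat
PGD, chr1:10398814-10399113, plus strand: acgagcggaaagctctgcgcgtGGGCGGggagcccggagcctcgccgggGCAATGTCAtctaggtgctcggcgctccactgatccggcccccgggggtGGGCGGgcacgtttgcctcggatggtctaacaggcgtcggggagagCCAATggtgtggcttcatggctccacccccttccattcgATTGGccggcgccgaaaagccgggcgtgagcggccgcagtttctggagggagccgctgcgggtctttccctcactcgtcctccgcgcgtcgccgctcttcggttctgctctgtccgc
TKT, chr3:53255973-53256272, minus strand: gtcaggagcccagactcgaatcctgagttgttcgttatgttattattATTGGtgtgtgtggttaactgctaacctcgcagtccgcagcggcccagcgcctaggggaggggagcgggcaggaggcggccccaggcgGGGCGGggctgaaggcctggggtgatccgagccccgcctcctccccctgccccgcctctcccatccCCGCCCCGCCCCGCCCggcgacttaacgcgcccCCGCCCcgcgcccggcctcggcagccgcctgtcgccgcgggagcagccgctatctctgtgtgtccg
TALDO1, chr11:747214-747513, plus strand: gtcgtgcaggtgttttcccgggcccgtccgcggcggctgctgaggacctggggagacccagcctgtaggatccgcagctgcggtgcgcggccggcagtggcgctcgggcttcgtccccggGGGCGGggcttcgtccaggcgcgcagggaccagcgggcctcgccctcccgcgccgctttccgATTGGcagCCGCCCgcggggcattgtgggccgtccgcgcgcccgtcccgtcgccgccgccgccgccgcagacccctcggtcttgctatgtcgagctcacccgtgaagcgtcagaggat
The GC box was present in the windows of all 6 members, with 5 matches in TKT, 3 in RPE, 2 each in PGD and TALDO1 and 1 each in PGLS and RPIA. Neighbouring matches in TKT and RPE overlap by a single base. It was found in 45% of all 35116 windows of 300 bases. The CCAAT box was present in 5 members, all but PGLS, against 34.6% of all windows. The antioxidant response element core, the motif read by the redox factor NRF2, was matched in PGD at -201 bases from the RefSeq start (GCAATGTCA, on the minus strand of the window) and in RPE at -151 bases (TGACAGCGC), against 13.3% of all windows. The E-box CACGTG (7.26% of all windows) and the TATA box TATAAA (11.5%) had no match in the 6 windows. A match describes these letters only and says nothing of binding.

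On GRCh38, in GENCODE release 29, PGLS (ENSG00000130313) lies on chromosome 19 from 17511629 to 17521288, PGD (ENSG00000142657) on chromosome 1 from 10398592 to 10420144 and RPIA (ENSG00000153574) on chromosome 2 from 88691644 to 88750935. RPE (ENSG00000197713) lies on chromosome 2 from 210002565 to 210022259, TKT (ENSG00000163931) on chromosome 3 from 53224707 to 53256052 and TALDO1 (ENSG00000177156) on chromosome 11 from 747329 to 765024. All are protein-coding, and the values below are counts over the whole gene. Exons of RPE overlap KANSL1L on the opposite strand, with 837 bases shared, and exons of PGLS overlap a long non-coding RNA on the opposite strand over 261 bases. Whether the counting used strand is not given in the sources used here, so reads of such overlaps cannot be told apart. RPE also has a near-copy, RPEL1, with 96.9% identity over 1777 bases and 0 to 3 counts a library, and PGD has a processed pseudogene, PGDP1, with 93.4% identity over 1450 bases. Further processed pseudogenes were matched for RPE (RPEP3 and RPEP4), PGD (AC022507.1) and RPIA (RPIAP1, 88.6% identity over 281 bases). None of these pseudogenes, PGDP1 included, is in the count table. The values of RPE, PGD and RPIA are uncertain to the extent that reads were split with these copies.

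Between the lines as labelled, members were called in both directions, in shares near those of all genes, which are given below. In the DMSO libraries, PGD, TKT and TALDO1 were lower under MHCC-97H than under either other label, PGLS and RPE were higher, and RPIA was at the same level within its error. PGD differed most, 6.71-fold against MDA-MB-231 and 6.72-fold against HCT-116. In each of these comparisons 5 of 6 members were called, 3 lower and 2 higher, at an adjusted p under 0.05 in edgeR's quasi-likelihood test with Benjamini-Hochberg adjustment over 14234 genes, where 82.7% and 82.5% of all genes were called (43.2% and 43% lower, 39.5% and 39.5% higher). Between the HCT-116 and MDA-MB-231 labels, 0 of 6 members were called, with 0.0351% of all genes called and 588 genes, or 4.13%, at an unadjusted p under 0.05, none of them a member. Where DMSO libraries are said below not to overlap between labels, the share of all genes so separated was not counted.

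**Figure D1:**
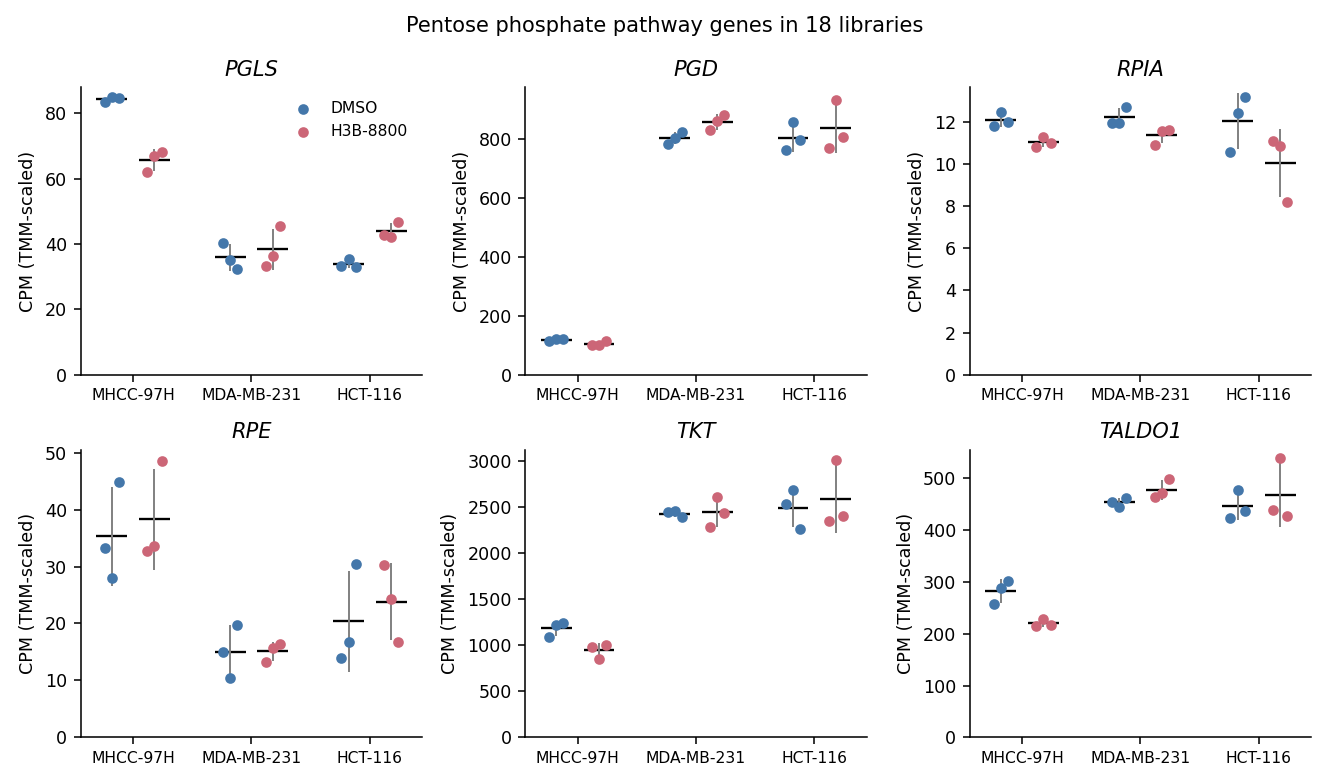
TMM-scaled CPM (linear axis from 0) of each member in the 18 libraries, by line label and treatment. Points are libraries, black bars the mean of 3 and grey lines 1 SD. PGD, TKT and TALDO1 lie lower under the MHCC-97H label, and PGLS and RPE higher. After H3B-8800 the points of all members but RPE under that label lie below all their controls, as for 28% of all genes.

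PGLS, the lactonase that opens the ring of 6-phosphogluconolactone, stood at 83.4, 85.0 and 84.8 CPM in the DMSO libraries labelled MHCC-97H, scaled by TMM as are all CPM of members. It stood at 40.4, 35.1 and 32.4 CPM under MDA-MB-231 and at 33.2, 35.3 and 33.0 CPM under HCT-116. The groups did not overlap, and the differences on the log2 scale were 1.23 ± 0.10 (SE; edgeR adjusted p = 1.2e-08) and 1.32 ± 0.10 (edgeR adjusted p = 5.5e-09). With trends of GC content and length removed from the counts, these differences shrank to 0.27 and 0.37 and stayed called (edgeR adjusted p = 0.035 and 0.0059).

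PGD, which makes NADPH while turning 6-phosphogluconate into ribulose 5-phosphate, stood at 115.7, 121.0 and 123.2 CPM under MHCC-97H. Under MDA-MB-231 it reached 785.4, 804.7 and 825.0 CPM, and under HCT-116 763.9, 858.4 and 797.0 CPM. No library came near the gap between these sets. The log2 difference of MHCC-97H was -2.75 ± 0.07 against each label (SE; edgeR adjusted p = 1.1e-14 in both), and PGD and PGLS, neighbours in the oxidative arm, thus differed in opposite directions.

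RPIA, which isomerises ribulose 5-phosphate to ribose 5-phosphate, was low and even, at 11.8, 12.4 and 12.0 CPM under MHCC-97H. Its values of 11.9 to 12.7 CPM under MDA-MB-231 and 10.6 to 13.1 CPM under HCT-116 enclosed or touched that range. The log2 differences were -0.02 ± 0.11 and 0.00 ± 0.11 (edgeR adjusted p = 0.89 and 0.97). With library totals as the scaling they became -0.30 and -0.25 and were called (edgeR adjusted p = 0.018 and 0.04), so the evenness of RPIA rests on the scaling.

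RPE, the epimerase that makes xylulose 5-phosphate, stood at 33.2, 27.9 and 44.9 CPM under MHCC-97H. It stood at 15.0, 10.5 and 19.7 CPM under MDA-MB-231 and at 13.9, 16.7 and 30.5 CPM under HCT-116. The first comparison did not overlap and differed by 1.23 ± 0.31 on the log2 scale (edgeR adjusted p = 0.0018). The second overlapped at 1 library each and differed by 0.80 ± 0.31 (edgeR adjusted p = 0.025). That call was lost without MHCC-97H DMSO replicate 3 (0.59, edgeR adjusted p = 0.12), without HCT-116 DMSO replicate 1 (0.58, edgeR adjusted p = 0.11) and without HCT-116 DMSO replicate 2 (0.67, edgeR adjusted p = 0.092), with library totals as the scaling (0.54, edgeR adjusted p = 0.11) and with the libraries of the contrast alone (0.80, edgeR adjusted p = 0.054), which are 5 of the 15 alternatives run.

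TKT, the transketolase that moves 2-carbon units between sugars, stood at 1093, 1224 and 1242 CPM under MHCC-97H. It stood at 2441, 2455 and 2386 CPM under MDA-MB-231 and at 2536, 2681 and 2260 CPM under HCT-116. The log2 differences were -1.03 ± 0.09 and -1.07 ± 0.09 (edgeR adjusted p = 4.2e-08 and 2.7e-08). TALDO1, the transaldolase that moves 3-carbon units, gave 256.6, 288.4 and 301.1 CPM under MHCC-97H, 452.9, 444.2 and 462.3 CPM under MDA-MB-231 and 423.8, 476.2 and 436.8 CPM under HCT-116. Its differences were -0.68 ± 0.08 and -0.66 ± 0.08 (edgeR adjusted p = 8.1e-07 and 1.2e-06). Neither enzyme overlapped between MHCC-97H and another label, in comparisons where 82.7% and 82.5% of all genes were called.

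To set the genes against each other, counts were divided by length and scaled to the same sum in every library, a unit like TPM. With the length of all annotated exons together, TKT led under MHCC-97H in DMSO at 365.8 ± 16.9 (SD, n = 3), followed by TALDO1 at 275.1 ± 15.9, PGD at 118.6 ± 0.990, PGLS at 87.0 ± 1.42, RPE at 29.4 ± 6.76 and RPIA at 19.2 ± 0.528. These levels did not overlap between neighbours in that order, since RPIA reached at most 19.7 and RPE fell to no less than 23.2. Under MDA-MB-231, PGD at 979.9 ± 17.3 stood just above TKT at 922.0 ± 22.8, ahead of TALDO1 at 544.4 ± 6.23, PGLS at 45.6 ± 5.51, RPIA at 23.8 ± 0.628 and RPE at 15.4 ± 4.57. The HCT-116 libraries gave the same order, with PGD at 974.9 ± 28.2 and TKT at 939.9 ± 61.6 overlapping, and RPIA and RPE overlapping.

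The order near the top depends on the length. TKT has 9507 bases of annotated exon but a median coding transcript of 2453 bases. With that median, chosen as an alternative after the data were seen, the ratio of TKT to PGD in DMSO rose from 3.08 to 7.59 under MHCC-97H, from 0.941 to 2.32 under MDA-MB-231 and from 0.964 to 2.37 under HCT-116. The ratio of PGLS to PGD rose from 0.733 to 1.29 under MHCC-97H, so that PGLS passed PGD there. Under the other labels it stayed far below, at 0.0465 and 0.0437 by exon length and 0.0819 and 0.077 by transcript length. With both lengths, PGD ranked 3 or 4 of 6 under MHCC-97H and 1 or 2 of 6 under the other labels.

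**Figure D2:**
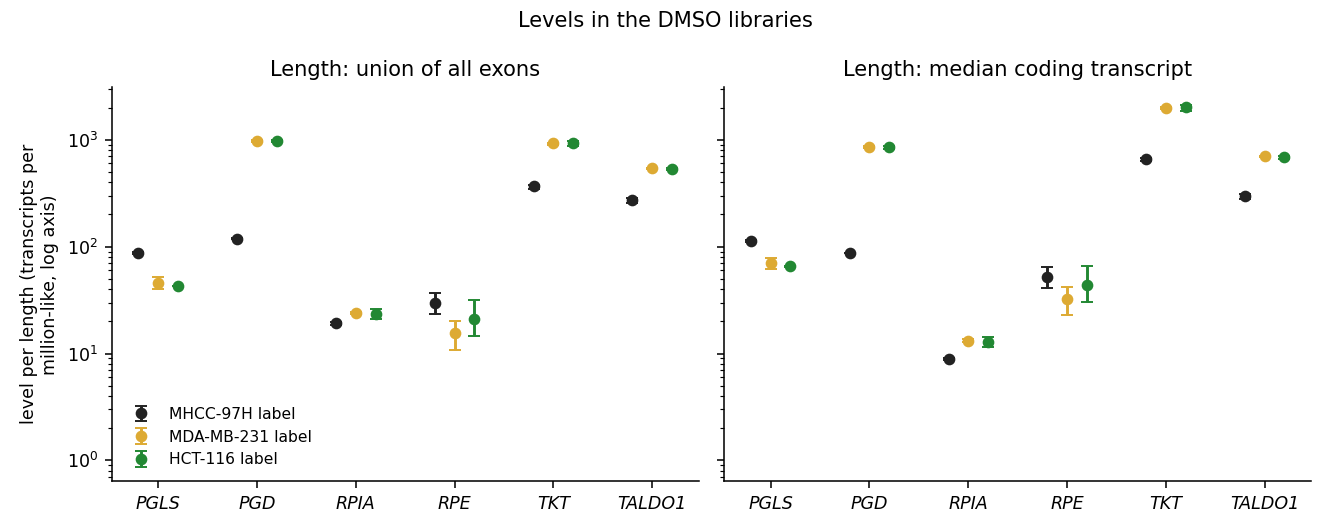
Levels per length of the members in the DMSO libraries (log axis), by the length of all exons (left) or of the median coding transcript (right). Points are means of 3 libraries and bars run from the lowest to the highest library. PGD lies far lower under MHCC-97H in both panels, and TKT and PGD under the other labels change places between the panels.

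After H3B-8800, PGLS, TKT and TALDO1 fell under the MHCC-97H label, to 0.778, 0.795 and 0.780 times their control levels. In this comparison 27.6% of all genes were called, 14.7% lower and 12.9% higher, and 3 of 6 members were called lower and 0 higher. The median log2 change of the members was -0.26 (all genes: -0.06). In 5 of 6 members, all but RPE, every treated library lay below every control, which was so for 28% of all genes.

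**Figure D3:**
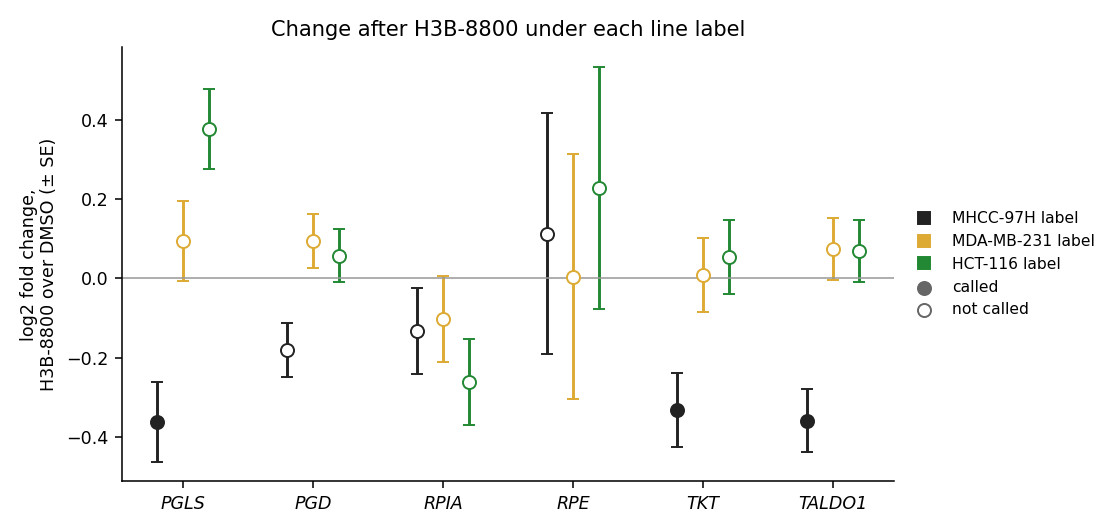
Log2 fold change of each member, H3B-8800 over DMSO, under each line label, with the SE of the edgeR fit. Filled points are called. The called points, PGLS, TKT and TALDO1 under MHCC-97H, lie between -0.36 and -0.33, and PGLS under the HCT-116 label lies at 0.38 without being called. With GC and length trends removed, PGLS moved to -0.06 and TALDO1 to -0.10 under MHCC-97H, and neither stayed called. TKT stayed called there, at -0.29, and the PGD point under that label, at -0.18, turned to 0.05.

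PGLS went from 83.4, 85.0 and 84.8 CPM in DMSO to 62.0, 66.8 and 68.2 CPM after H3B-8800. Every treated library was below every control, and the log2 change was -0.36 ± 0.10 (SE; edgeR adjusted p = 0.016). Leaving out MHCC-97H DMSO replicate 3 or MHCC-97H H3B-8800 replicate 1 ended the call (edgeR adjusted p = 0.051 and 0.062), with changes of -0.36 and -0.32.

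PGD, the NADPH-making dehydrogenase, went from 115.7, 121.0 and 123.2 CPM to 102.6, 101.5 and 113.7 CPM. The treated libraries lay below the controls by a narrow gap, and the log2 change of -0.18 ± 0.07 did not pass the test (SE; edgeR adjusted p = 0.06). It passed without MHCC-97H H3B-8800 replicate 3 (-0.23, edgeR adjusted p = 0.035) and with the replicate number as a block (-0.18, edgeR adjusted p = 0.0043).

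The isomerase RPIA gave 11.8, 12.4 and 12.0 CPM in DMSO and 10.8, 11.3 and 11.0 CPM after H3B-8800. All treated values were lower, but the log2 change was only -0.13 ± 0.11 (SE; edgeR adjusted p = 0.4), and with library totals as the scaling it was 0.00. The epimerase RPE gave 33.2, 27.9 and 44.9 CPM and then 32.6, 33.6 and 48.6 CPM, which overlap. Its log2 change was 0.11 ± 0.30 (SE; edgeR adjusted p = 0.85), with a direction that turned to -0.03 without MHCC-97H DMSO replicate 2 and to -0.10 without MHCC-97H H3B-8800 replicate 3.

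TKT went from 1093, 1224 and 1242 CPM to 976.1, 852.8 and 1001 CPM. The highest treated library stayed below the lowest control, and the log2 change was -0.33 ± 0.09 (SE; edgeR adjusted p = 0.018). The call was lost without MHCC-97H DMSO replicate 2, MHCC-97H DMSO replicate 3 or MHCC-97H H3B-8800 replicate 2 (edgeR adjusted p = 0.062, 0.071 and 0.085), where the change was -0.31, -0.30 and -0.26. TALDO1 went from 256.6, 288.4 and 301.1 CPM to 215.4, 228.2 and 216.5 CPM. Its log2 change of -0.36 ± 0.08 (SE; edgeR adjusted p = 0.006) stayed called with any 1 of the 6 libraries left out (edgeR adjusted p from 0.0038 to 0.034).

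Levels per exon length carry no test and are scaled to the same sum in every library, without TMM. The length of a gene cancels in its own ratio of treated to control. On that scale the differences of PGLS, TKT and TALDO1 were smaller. The level after H3B-8800 was 0.882 times that in DMSO for PGLS, 0.901 times for TKT and 0.885 times for TALDO1. PGD was level there, at 118.6 ± 0.990 before and 118.7 ± 6.52 after treatment (SD, n = 3). RPIA, lower in CPM, was 1.03 times its control level on that scale, and RPE 1.23 times.

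Under the MHCC-97H label the change of all genes moved with GC content. From the lowest to the highest quartile of transcript GC, the median log2 change was 0.24, 0.04, -0.15 and -0.25, and 3.01%, 8.01%, 19.3% and 28.5% of genes were called lower. PGLS (63.4% GC) and TKT (57.7%) belong to the highest quartile, PGD (53.8%) and TALDO1 (55.3%) to the next, and RPIA (48.6%) and RPE (43.4%) to the one below that. With trends of GC and length removed from the counts, TKT alone was still called, at -0.29 ± 0.08 (SE; edgeR adjusted p = 0.021). PGLS moved to -0.06 ± 0.11 (edgeR adjusted p = 0.83) and TALDO1 to -0.10 ± 0.04 (edgeR adjusted p = 0.082), while PGD turned to 0.05 ± 0.03 (edgeR adjusted p = 0.41). The length of TKT in that correction is the 9507 bases of all its exons. What lies behind the GC trend was not tested.

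**Figure D4:**
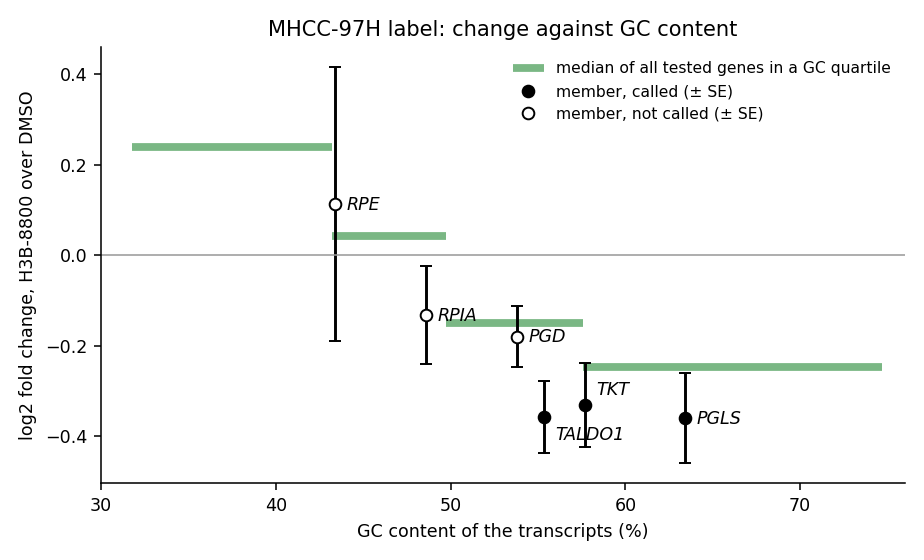
Log2 fold change under the MHCC-97H label against transcript GC content (%). Green bars are medians of all tested genes in each GC quartile, from 0.24 to -0.25, and points are the members with the SE of the fit, filled where called. The members follow the downward slope of all genes, and TALDO1, at -0.36, lies below the -0.15 of its quartile.

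Scaling mattered as well. With library totals in place of TMM, the median change of all genes moved from -0.06 to 0.04 and the calls from 2091 lower and 1831 higher to 346 lower and 2501 higher. TALDO1 alone stayed called then, at -0.22 (edgeR adjusted p = 0.036), while PGLS at -0.23 and TKT at -0.20 did not (edgeR adjusted p = 0.12 for both). PGLS, TKT and TALDO1 were below 0 in every setting run, including those without a library.

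**Figure D5:**
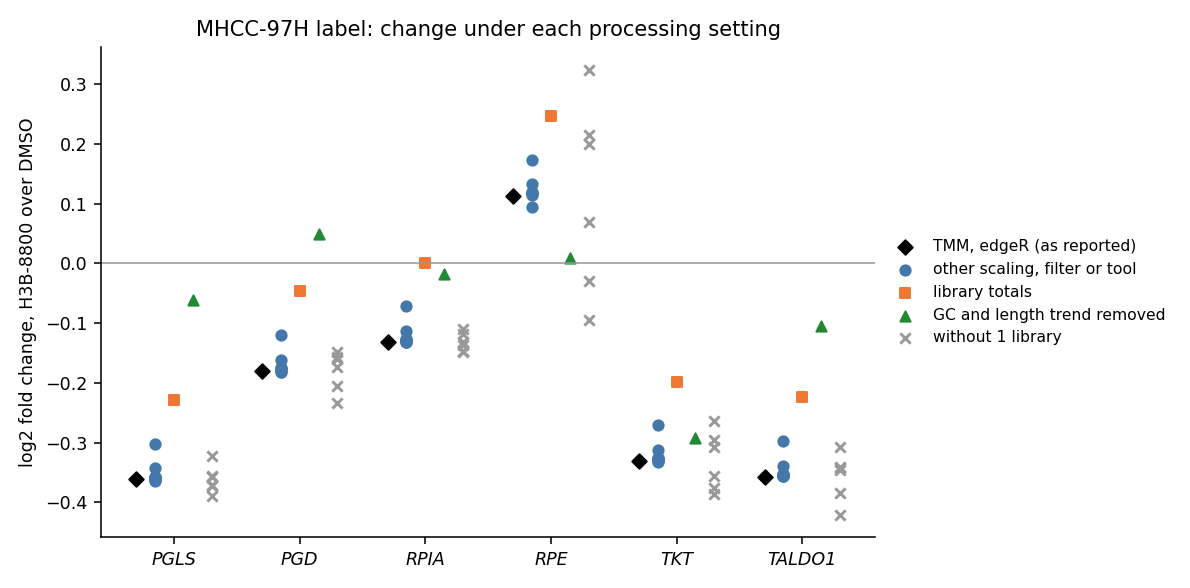
Log2 fold change of each member under the MHCC-97H label by kind of processing setting. Every setting is drawn except GC and length removal with the replicate block added. Most settings lie close to the reported value. Library totals and removal of GC and length trends bring PGLS, PGD and TALDO1 closer to 0, with PGD turning to 0.05 and RPIA to 0.00. TKT moves to -0.20 with library totals and stays at -0.29 after GC and length removal.

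Under the other labels no change of a member was called. In both comparisons 0.0351% of all genes, 5 in number, were called, and 1024 genes (7.19%) for MDA-MB-231 and 655 (4.6%) for HCT-116 had an unadjusted p under 0.05. Among the members 0 and 2 did, PGLS and RPIA under HCT-116. Every member was also far from called in the 12 libraries of both labels combined (edgeR adjusted p from 0.45 to 0.96). There 0.0422% of all genes were called and 7.59% had an unadjusted p under 0.05, and of the members 0 and 2.

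PGLS gave 33.2, 35.3 and 33.0 CPM in DMSO and 42.7, 42.2 and 46.9 CPM after H3B-8800 under HCT-116. All treated libraries were higher, as for 3.71% of all genes under that label, and the log2 change was 0.38 ± 0.10 (SE; edgeR adjusted p = 0.64, unadjusted p = 0.00201). Under MDA-MB-231 the lactonase overlapped, with 40.4, 35.1 and 32.4 CPM before and 33.3, 36.5 and 45.5 CPM after, and a change of 0.10 ± 0.10 that turned to -0.04 without MDA-MB-231 H3B-8800 replicate 3. Over the 12 libraries it was 0.24 ± 0.07 (edgeR adjusted p = 0.45).

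PGD gave 785.4, 804.7 and 825.0 CPM before and 830.8, 864.2 and 883.2 CPM after treatment under MDA-MB-231, without overlap, as for 8.67% of all genes in that direction. Under HCT-116 it gave 763.9, 858.4 and 797.0 CPM before and 771.2, 935.3 and 809.5 CPM after, which overlap. The log2 changes were 0.09 ± 0.07 and 0.06 ± 0.07 (SE; edgeR adjusted p = 0.81 and 1).

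RPIA gave 12.0, 11.9 and 12.7 CPM before and 10.9, 11.6 and 11.6 CPM after under MDA-MB-231, without overlap, as for 9.86% of all genes in that direction, and a change of -0.10 ± 0.11. Under HCT-116 it gave 10.6, 12.4 and 13.1 CPM and then 11.1, 10.9 and 8.20 CPM, with a change of -0.26 ± 0.11 (SE; edgeR adjusted p = 1, unadjusted p = 0.0299). The lowest of the 18 RPIA values is the third treated HCT-116 library, with 272 counts. The fitted change of RPIA was below 0 under all 3 labels, save 0.00 under MHCC-97H with library totals, and was called under none.

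RPE gave 15.0, 10.5 and 19.7 CPM before and 13.3, 15.7 and 16.5 CPM after under MDA-MB-231, and 13.9, 16.7 and 30.5 CPM before and 30.3, 24.3 and 16.8 CPM after under HCT-116. Both comparisons overlap widely, and the changes were 0.00 ± 0.31 and 0.23 ± 0.31 (SE; edgeR adjusted p = 1 in both). TKT gave 2441, 2455 and 2386 CPM before and 2285, 2604 and 2433 CPM after under MDA-MB-231, and 2536, 2681 and 2260 CPM before and 2352, 3010 and 2399 CPM after under HCT-116. For the transketolase the changes were 0.01 ± 0.09 and 0.05 ± 0.09. TALDO1 gave 452.9, 444.2 and 462.3 CPM before and 462.5, 470.5 and 498.1 CPM after under MDA-MB-231, which just do not overlap, and 423.8, 476.2 and 436.8 CPM before and 437.4, 537.9 and 427.1 CPM after under HCT-116. Its changes were 0.07 ± 0.08 under both.

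The effect of H3B-8800 on PGLS and TALDO1 differed between the labels. The interaction of treatment and label was called for these 2 of 6 members (edgeR adjusted p = 0.014 and 0.025), where 15.4% of all genes were called. For TKT and PGD the interaction did not pass (edgeR adjusted p = 0.09 and 0.097), and for RPIA and RPE it was far from the threshold (0.74 and 0.96, edgeR adjusted p). With a block for the replicate number TKT and PGD passed too (edgeR adjusted p = 0.039 and 0.0071), which makes 4 of 6, and the share of all genes called rose to 25.2%. With GC and length trends removed none did (edgeR adjusted p = 0.22 for PGLS and 0.26 for TALDO1), where 7.27% of all genes were called.

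For PGLS the change under MHCC-97H was lower than that under MDA-MB-231 by a log2 difference of -0.46 ± 0.14 and than that under HCT-116 by -0.74 ± 0.14 (SE; edgeR adjusted p = 0.036 and 0.013). For TALDO1 these differences were -0.43 ± 0.11 and -0.43 ± 0.11 (SE; edgeR adjusted p = 0.018 and 0.028). In these pairwise comparisons 9.67% and 6.18% of all genes were called lower, and 2 of 6 members in each. The difference of PGLS from MDA-MB-231 lost its call in 11 of 22 alternatives (edgeR adjusted p up to 0.87), 7 of them with a library left out: MHCC-97H DMSO replicate 2 or 3, MHCC-97H H3B-8800 replicate 1 or 2, MDA-MB-231 DMSO replicate 2 or 3 or MDA-MB-231 H3B-8800 replicate 3. That of TALDO1 from HCT-116 lost it in 12 of 22 (edgeR adjusted p up to 0.17), 8 of them with a library left out: any MHCC-97H library but DMSO replicate 1, HCT-116 DMSO replicate 1 or 3 or HCT-116 H3B-8800 replicate 2. PGLS against HCT-116 lost it in 2 of 22, both with GC and length trends removed, and TALDO1 against MDA-MB-231 in 5 of 22, among them without MHCC-97H DMSO replicate 3 and without MDA-MB-231 H3B-8800 replicate 3. The TALDO1 interaction was lost without MHCC-97H DMSO replicate 2 (0.073), MHCC-97H DMSO replicate 3 (0.086), MHCC-97H H3B-8800 replicate 1 (0.069), MHCC-97H H3B-8800 replicate 2 (0.054) or MHCC-97H H3B-8800 replicate 3 (0.057), all edgeR adjusted p. The PGLS interaction stayed called with any 1 library left out (edgeR adjusted p from 0.01 to 0.044).

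The members differed in how steady they were among libraries of 1 group. RPE was the least steady: the highest library of a group exceeded the lowest by 1.24 to 2.19 times, and replicate 3 was the highest in 5 of 6 groups. For the other members the largest such ratio was 1.37 for PGLS, 1.35 for RPIA, 1.28 for TKT, 1.26 for TALDO1 and 1.21 for PGD. RPE and RPIA rested on 368 to 1626 and 272 to 481 counts a library, while TKT had 29194 to 106273.

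With the mean of each label removed, PGD, TKT and TALDO1 varied together over the 18 libraries. Pearson's r was 0.85 between PGD and TALDO1, 0.83 between PGD and TKT and 0.83 between TKT and TALDO1. PGLS was less close to them (0.47 to 0.57), and RPIA and RPE stood apart, with r between -0.26 and 0.33 to any member. These values describe points that share library, depth and treatment, and carry no test. By this measure the transferases of the non-oxidative arm were close to PGD of the oxidative arm, and the isomerase and the epimerase were not. PGD, TKT and TALDO1 were each closer to genes outside the pathway, named next, than to each other. The r of all pairs of genes was not computed.

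Among 9232 tested genes averaging at least 10 CPM, the genes most like TALDO1 by this measure were PEBP1, a kinase inhibitor protein (r = 0.984), and the proteasome subunits PSMD4 (0.984) and PSMB1 (0.972). Closest to PGD were KIF1C, a kinesin motor (0.973), AP2M1, a clathrin adaptor subunit (0.966), and VCP, an ATPase of protein quality control (0.964). TKT was closest to USP4, a deubiquitinase (0.947), NDUFB7, a subunit of respiratory complex I (0.936), and KXD1 (0.933). The likeness was weaker for PGLS (TMCO4, 0.83), RPIA (HILPDA, a lipid droplet protein, 0.838) and RPE (TEP1, 0.709), each over the same 18 libraries.

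Around the pathway, genes that feed or drain it were measured in the same fit under the MHCC-97H label. Of 15 such genes 12 could be tested, and 0 rose and 1 fell, where 12.9% of all genes rose and 14.7% fell. Their median log2 change was -0.11 (all genes: -0.06). The one that fell was GPI, the isomerase linking glucose 6-phosphate to fructose 6-phosphate, from 4450 ± 74.9 to 3874 ± 98.8 CPM (SD, n = 3). Its log2 change was -0.20 ± 0.06 (SE; edgeR adjusted p = 0.019), and GPI shares exons with another annotated gene. PRPS2, a synthetase of the nucleotide precursor PRPP, was at 0.74 ± 0.32 (SE; edgeR adjusted p = 0.097), RBKS, ribokinase, at -0.43 ± 0.17 (edgeR adjusted p = 0.077) and TIGAR, a fructose bisphosphatase that diverts sugar into the pathway, at -0.55 ± 0.25 (edgeR adjusted p = 0.11), none of them called. H6PD, the dehydrogenase of the endoplasmic reticulum, was at -0.08 ± 0.06 (edgeR adjusted p = 0.36). The transketolase-like genes TKTL1 and TKTL2 held 0 to 16 and 0 to 2 counts a library and were not tested, so TKT carried nearly all transketolase reads.

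Other sources and users of NADPH moved in both directions under MHCC-97H. Of 14 genes 13 could be tested, and 4 rose and 4 fell, against 12.9% and 14.7% of all genes. IDH1, the cytosolic isocitrate dehydrogenase that makes NADPH, rose from 41.6 ± 1.40 to 87.9 ± 17.0 CPM (SD, n = 3), a log2 change of 1.08 ± 0.10 (SE; edgeR adjusted p = 3.2e-05). ALDH1L2, a mitochondrial folate enzyme that makes NADPH, rose from 15.6 ± 1.29 to 27.8 ± 0.686 CPM (SD, n = 3), by 0.83 ± 0.20 (edgeR adjusted p = 0.009). The transhydrogenase NNT rose by 0.38 ± 0.08 (edgeR adjusted p = 0.0049) and malic enzyme ME1 by 0.18 ± 0.04 (edgeR adjusted p = 0.0076). NADK, the cytosolic NAD kinase, changed by -0.32 ± 0.10 (edgeR adjusted p = 0.031), ME3 by -0.28 ± 0.08 (0.016), IDH2 by -0.28 ± 0.08 (0.015) and glutathione reductase GSR by -0.20 ± 0.06 (0.016), with edgeR adjusted p in parentheses. IDH1 and ALDH1L2 stayed called with GC and length trends removed (0.94 and 0.51, edgeR adjusted p = 8.4e-05 and 0.032), and the other 6 did not. Exons of IDH1, ALDH1L2 and NNT overlap those of genes on the opposite strand.

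Of 14 genes that use PRPP for purines and pyrimidines, or act downstream of it, 0 rose and 2 fell under MHCC-97H, a share near that of all genes, of which 14.7% fell. Their median log2 change was -0.16 (all genes: -0.06). Those that fell were the salvage enzyme APRT, from 109.2 ± 7.66 to 81.3 ± 4.21 CPM (SD, n = 3; log2 change -0.43 ± 0.08, edgeR adjusted p = 0.0035), and IMPDH2, a gatekeeper of guanine nucleotide synthesis, from 182.2 ± 5.89 to 150.3 ± 0.862 CPM (SD, n = 3; -0.28 ± 0.06, edgeR adjusted p = 0.0055). Neither stayed called with GC and length trends removed (edgeR adjusted p = 0.34 and 0.065), and IMPDH2 has an antisense gene over its exons. Under MDA-MB-231 and under HCT-116, 0 genes of these 3 lists were called in edgeR. At an unadjusted p under 0.05 there were 2, 2 and 0 of them under MDA-MB-231 and 0, 1 and 0 under HCT-116, in the order pathway neighbours, NADPH genes and PRPP users. MTHFD2, another mitochondrial folate enzyme, was listed at 0 in all 12 libraries of these labels and at 202.8 to 269.5 CPM under MHCC-97H. It is not known whether those zeros stand for reads not found or for a gene missing from that part of the table.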

How the data were processed

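RNA was sequenced from 18 libraries in 6 groups of 3, grouped by the labels. The deposited table holds whole-number read counts per Ensembl gene, made by the authors and not normalized. Reads were trimmed and aligned with tools that include fastp and HISAT2, on GRCh38, per the submitters' processing notes. Tool versions, the read counter, its annotation and its use of strand: not given in the sources used here. Gene positions, exonic length and GC content came from GENCODE release 29, which held 20224 of 20263 genes, and near-copies from blastn (at least 80% identity over 250 bases).

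Counts were fitted with edgeR 4.0.16 in R 4.3.3: TMM scaling, filterByExpr by group (14234 genes left), 1 mean per group over all 18 libraries, and the robust quasi-likelihood F test with Benjamini-Hochberg adjustment over all genes tested, called under 0.05. The steps were tested on simulated data. The 6 members, the 3 lists and the rule for named genes (all members, all list genes with the called ones of largest change first, and the 3 genes most correlated with each member) were chosen with earlier results of these data known. Zero counts and totals limit precision, for counting error only.

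Alternatives were other scalings (relative log expression, upper quartile, library totals), no filter or 50 counts in 3 libraries, DESeq2 1.42.0, limma-voom 3.58.1, removal of GC and length trends, a replicate block, the libraries of a contrast alone, and leaving out each library in turn. The length of median coding transcripts was added after seeing the data. Replicate numbers were checked as pairs by correlating deviations from group means over 10625 genes. Same-numbered libraries correlated at 0.13 to 0.33 under HCT-116, at -0.02 to 0.14 under MHCC-97H and at 0.06 to 0.22 under MDA-MB-231. The main fit used no pairs under any label. The replicate block, run as an alternative only, paired same-numbered libraries under every label.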

Additional observations from a re-analysis of the deposited data

Results flagged for a closer look

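The effect of H3B-8800 differed between the 3 line labels, by the interaction of treatment and label in edgeR, for the members PGLS (adjusted p = 0.014) and TALDO1 (adjusted p = 0.025). For PGLS the log2 change was -0.36 under MHCC-97H, 0.10 under MDA-MB-231 and 0.38 under HCT-116, and for TALDO1 -0.36, 0.07 and 0.07. Between the effects under MDA-MB-231 and HCT-116, 0 of 6 members were called, with 0.0351% of all genes called. The interaction lost its call in 2 of 28 alternatives for PGLS and in 9 of 28 for TALDO1. Neither was called with GC and length trends removed.

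Among the genes around the pathway the same interaction was called in edgeR for 9 more: 1 of 12 tested pathway neighbours, 6 of 13 NADPH genes and 2 of 14 PRPP users, against 15.4% of all genes. IDH1 had the smallest adjusted p (0.00068), with log2 changes of 1.08 under MHCC-97H, -0.07 under MDA-MB-231 and -0.01 under HCT-116, the order also used below. The log2 changes of NNT (0.38, -0.04 and -0.08, edgeR adjusted p = 0.025) and ME1 (0.18, -0.05 and 0.02, edgeR adjusted p = 0.038) were likewise higher under MHCC-97H than under the other labels. The log2 changes of the other 6 were lower there: APRT (-0.43, 0.16 and 0.11, edgeR adjusted p = 0.012), GSR (-0.20, 0.17 and 0.08, edgeR adjusted p = 0.016), IDH2 (-0.28, 0.24 and 0.08, edgeR adjusted p = 0.017), IMPDH2 (-0.28, 0.10 and 0.02, edgeR adjusted p = 0.022), ME3 (-0.28, -0.05 and 0.20, edgeR adjusted p = 0.025) and GPI (-0.20, 0.14 and 0.04, edgeR adjusted p = 0.03). The groups hold 3 libraries each, so single libraries were not tested as outliers.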

How the results depend on the processing

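Of 773 recomputed values of single genes, 655 kept their direction and their side of the threshold, 84 lost a call, 3 gained one and 31 changed sign. The count of members called under MHCC-97H, 3, fell to 1 with library totals, with GC and length trends removed and with that removal plus a replicate block, and ranged from 1 (without MHCC-97H DMSO replicate 3) to 4 with 1 library left out. The count with an effect that differs between labels, 2, became 1 with upper-quartile scaling, 1 with library totals, 0 with GC and length trends removed, 0 with that removal plus the block and 4 with the replicate block, and ranged from 1 to 3 with 1 library left out. Neither the count of 0 under MDA-MB-231 and HCT-116 nor that of 0 between their DMSO libraries moved in any setting run. The count of 5 between DMSO libraries ranged from 5 to 6 against MDA-MB-231 and from 4 to 5 against HCT-116. Under MHCC-97H the calls among the pathway neighbours, 1, became 0 with upper-quartile scaling and with library totals, 2 with limma-voom, with the replicate block and with the block plus GC and length removal, and 3 with DESeq2 and with the libraries of the contrast alone, and ranged from 0 to 1 with 1 library left out (0 without replicate 2 or 3 of DMSO or replicate 3 of H3B-8800). Those among the NADPH genes, 8, became 3 with GC and length removal and 4 with the block added, and ranged from 4 (without H3B-8800 replicate 2) to 8. Those among the PRPP users, 2, became 4 with the replicate block and 4 with the block plus GC and length removal, and ranged from 2 to 3. Under MHCC-97H all genes called numbered 3922, against 4665 with the replicate block, 2102 with GC and length removal and from 2141 (without DMSO replicate 3) to 3745 with 1 library left out, where replicate 2 of either treatment also brought the number down to 2439 and 2336. Which of these counts rest on fewer libraries or genes follows from the setting, and any further cause was not tested.

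Changes of sign, on the log2 scale and none of them called save 1, were as follows. Under MHCC-97H, PGD gave 0.049 with GC and length removal and 0.048 with the block added, IDH2 0.001 with both together, and RPIA 0.001 with library totals. Under MDA-MB-231, TKT gave -0.023 with library totals, -0.02 with GC and length removal and -0.022 with the block added, and RPE gave -0.027 with library totals. RPIA between DMSO libraries of MHCC-97H and MDA-MB-231 gave 0.042 with relative log expression scaling and with DESeq2, 0.02 with upper-quartile scaling and 0.007 with the libraries of the contrast alone, and against HCT-116 it gave -0.25 with library totals (edgeR adjusted p = 0.04), -0.002 with no filter and -0.12 with GC and length removal. With 1 library left out, the range was -0.10 to 0.32 for RPE under MHCC-97H, -0.044 to 0.19 for PGLS, -0.20 to 0.25 for RPE and -0.041 to 0.053 for TKT under MDA-MB-231, -0.037 to 0.11 for PGD, -0.077 to 0.12 for TKT and -0.052 to 0.13 for TALDO1 under HCT-116, and -0.039 to 0.013 and -0.084 to 0.07 for RPIA between DMSO libraries against MDA-MB-231 and HCT-116.

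With the replicate block, 4 members were called under MHCC-97H, with PGD added, and 0 under each other label, while the share of all genes called under MHCC-97H rose to 32.8%. It changed no member's call under HCT-116. A control correlated best with the treated library of its own number in 2 of 3 cases under HCT-116, 2 of 3 under MDA-MB-231 and 1 of 3 under MHCC-97H. No paired analysis was possible for the DMSO libraries of different labels, because the block lies within a label. With 3 libraries a group, RPE and RPIA are limited by their spread and low counts.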
